A study of Mus musculus with 3 samples.

Results

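Solute carriers are membrane proteins that move ions, nutrients and metabolites across the plasma membrane and the membranes of organelles, most of them as exchangers or as cotransporters that use the gradient of sodium, protons or chloride. They are numbered by family, and the members of a family mostly share a substrate. In pigment cells, carriers of the melanosome set the conditions for melanin synthesis, and those carriers were not among the genes described here. The 156 genes described were all rows of the RPKM table whose symbol was Slc, a number, the letter a and a number, without the mitochondrial Slc25 family (41 genes) and without 7 named genes of glucose entry, lactate and cystine transport and the melanosome. They were 156 of 12852 genes in the table, under 155 symbols, because Slc38a9 was carried by 2 gene IDs. Of these, 152 encode carriers, and 4 (Slc9a3r1, Slc9a3r2, Slc4a1ap and Slc7a6os) only bear a carrier's name.

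The cells were B16F10, a mouse melanoma cell line, grown in DMEM with serum. The tested libraries came from 2 samples of cells with Med23, a subunit of the Mediator complex, knocked down (siMed23A and siMed23B), and were compared with 1 library of cells labelled wild type and titled siCtrl. The header did not separate the knockdown columns, so the text speaks of a first and a second knockdown library, in table order. Nothing in the labels said whether they came from separate cultures or which siRNA sequences were used. P-values rest on the spread between these 2 knockdown samples and a prior spread over all genes, and speak for these samples only. The control had no replicate. Levels are in RPKM, which counts reads relative to the length of the transcript and the size of the library. Their sorted values were nearly the same in each library, so neither read depth nor a shift in total RNA can be read from them. Med23 itself was 1.65 and 1.61 RPKM in the knockdown libraries, against 5.23 RPKM in the control (log2 ratio -1.24, SE 0.11, limma with Benjamini-Hochberg adjusted p = 0.00121). All 7 melanocyte markers looked for were present, and their summed level was 2977 and 2868 RPKM in the knockdown libraries, against 6923 RPKM in the control. Of 10 markers of other cell types 3 were listed, with a sum of 10.7 and 11.0 RPKM in the knockdown libraries, against 17.2 RPKM in the control, most of it from Cd68. The part of these shifts in the carriers' values was not tested.

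Of the 152 carriers, 99 averaged 1 RPKM or more over the libraries and were tested, and 53 lay under that limit. Levels in the control spanned a wide range, and 27 carriers reached at least 10 RPKM there. Slc48a1, which moves heme out of the lysosome, was by far the highest with 140.3 and 142 RPKM in the knockdown libraries, against 166 RPKM in the control. The next were Slc6a6, the taurine transporter, at 65.1 RPKM in the control, Slc38a10, of the glutamine transporter family, at 55.9 RPKM, and Slc3a2, the heavy chain of heteromeric amino acid transporters, at 52.5 RPKM. RPKM is per length, so these levels can be set beside each other.

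After knockdown 27 of the 99 tested carriers were lower, 22 were higher and 50 did not pass limma's test (adjusted p under 0.05, adjusted over all 9722 genes tested). Over all genes tested 24.0% were called lower and 26.3% higher, 50.3% in either direction. The carriers' 27.3% lower and 22.2% higher thus lay near the background and are no result about carriers as a group. The same background applies to each substrate class. The median log2 ratio of the tested carriers was 0.01, as was that of all genes tested. Sorted values nearly the same in each library leave the median of all genes little room to differ from 0. Log2 ratios here are differences of log2(RPKM + 1), knockdown minus control, and understate the change of genes with low values. Of the 99 carriers, 5 were at least 2-fold lower in both libraries and 5 at least 2-fold higher. Over all genes tested 4.76% were lower and 4.97% higher by this measure, so these counts lay near the background. The 5 that fell were Slc6a17, Slc36a4, Slc35a5, Slc19a2 and Slc39a10, and the 5 that rose were Slc15a3, Slc38a3, Slc2a6, Slc44a3 and Slc4a2. Slc15a3 met the filter on low values only through the knockdown libraries, and Slc36a4 only through the control. These libraries are of bulk RNA, in which fewer cells of a kind and less RNA per cell cannot be told apart. Transcript length and GC content moved with the direction, with medians of 5427 bases and 48.5% GC for carriers that were lower, 3136 bases and 54.2% GC for those that were higher, and 3383 bases and 49.7% GC for all genes tested. After a loess correction of the ratios for both, 20 of the 27 lower and 20 of the 22 higher carriers kept their call. A further 11 passed, higher for Slc4a4, Slc5a3, Slc7a1, Slc9a5, Slc30a1, Slc31a1 and Slc38a9 and lower for Slc17a5, Slc27a4, Slc39a3 and Slc39a6. The limma test takes the lone control to vary like a knockdown library. When its SD was taken as 3 times larger, limma called 0 of the 99 carriers (0.792% of all genes lower and 1.21% higher), with 10 lower and 5 higher at an unadjusted p under 0.05 and a smallest adjusted p of 0.0742.

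**Figure D1:**
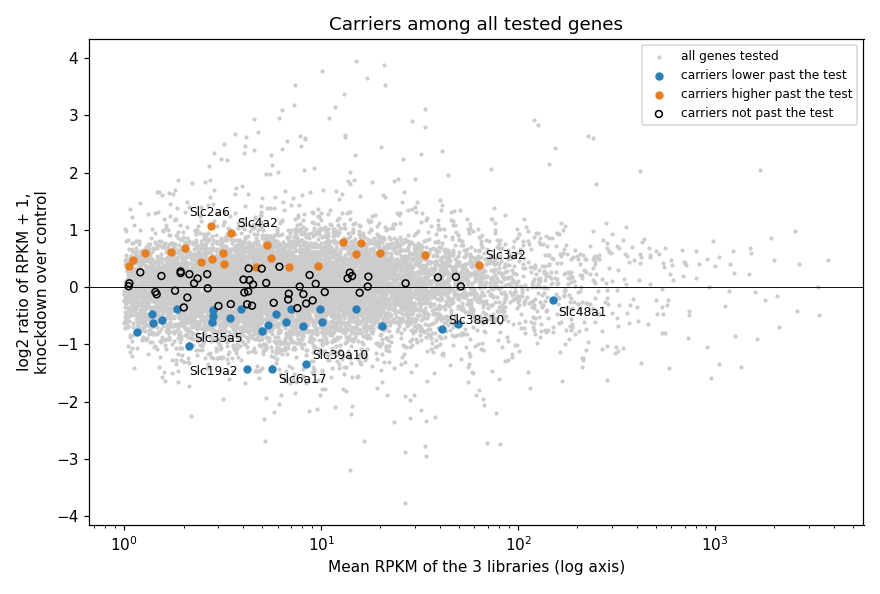
Log2 ratio of RPKM + 1, knockdown over control (y axis), against the mean RPKM of the 3 libraries (x axis, log scale), for all 9722 genes tested in grey and for the 99 tested carriers in colour by their limma call. The carriers are spread around 0 like the other genes, with Slc19a2 and Slc6a17 lowest, both at -1.43, and Slc2a6 highest at 1.08.

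**Figure D2:**
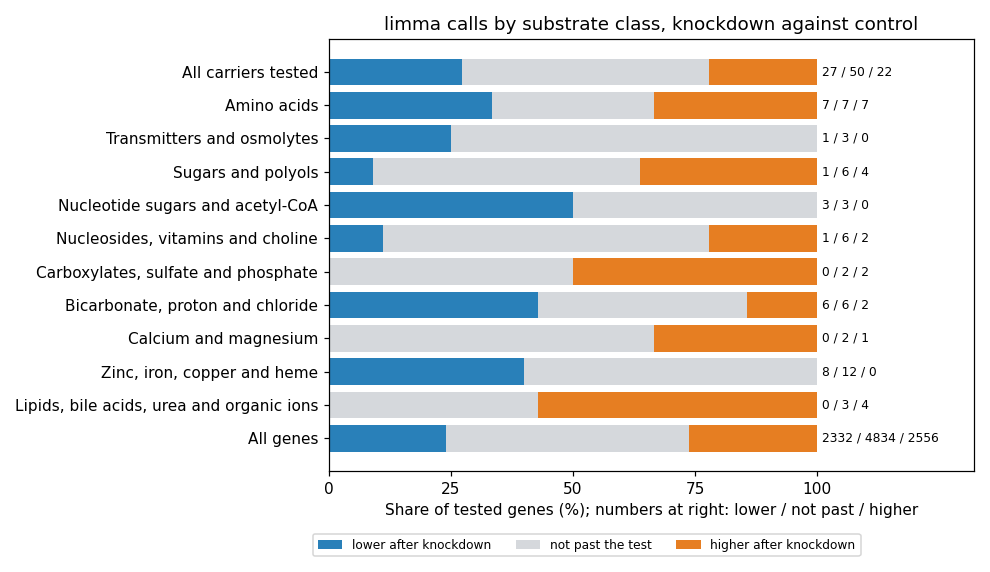
Share of tested genes called lower (blue), higher (orange) or not past limma's test (grey) in each substrate class, with all carriers and all genes for comparison, and the counts at the right. Calls in the class of zinc, iron, copper and heme are 8 lower and 0 higher, and those among lipids and organic ions are 0 lower and 4 higher. Among these 4, Slc22a21 and Slc10a7 met the filter only because of their knockdown values, and Slc22a18 lost its call after the correction for length and GC.

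Promoter sequences are shown for called carriers with a match to CACGTG or TGATGNAA before the start site. The other short motifs searched were counted, and their matches are not printed. Windows of 250 bases before to 50 bases after the start site, taken from RefSeq (build GRCm38.p6), were matched for 75 of the 99 tested carriers. The E-box CACGTG, a sequence that Mitf and related factors can bind, was found on either strand in 4 of 16 carriers that fell, 3 of 16 that rose and 7 of 43 that did not pass, against 12.4% of the 7024 tested genes with a window and 7.15% of all 32851 windows. Each line gives a stretch of 60 bases around the motif, taken from the 250 bases before the start site, 5′ to 3′ on the gene's strand, with the motif in capitals. Counted from its first base to the start site, the capitalized motif (for Slc35a5 the second of 2) lay 31 bases upstream in Slc36a1, 38 in Slc12a7, 67 in Slc35a5, 61 in Slc30a5, 75 in Slc29a1, 22 in Slc20a1 and 213 in Slc41a3. The first 4 belong to carriers that fell and the next 3 to carriers that rose.
Slc36a1: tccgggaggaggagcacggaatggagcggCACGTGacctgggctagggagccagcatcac
Slc12a7: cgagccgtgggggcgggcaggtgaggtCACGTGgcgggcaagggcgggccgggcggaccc
Slc35a5: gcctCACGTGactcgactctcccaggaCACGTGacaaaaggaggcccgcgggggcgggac
Slc30a5: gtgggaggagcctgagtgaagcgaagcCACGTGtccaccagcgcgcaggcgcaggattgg
Slc29a1: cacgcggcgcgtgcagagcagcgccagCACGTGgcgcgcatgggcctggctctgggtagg
Slc20a1: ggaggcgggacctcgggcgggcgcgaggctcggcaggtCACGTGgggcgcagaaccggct
Slc41a3: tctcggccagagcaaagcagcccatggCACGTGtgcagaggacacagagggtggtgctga
The letters TGATGNAA, the core of an amino acid response element, stood in windows of 3 of 16 carriers that rose (Slc1a4, Slc7a7 and Slc50a1), 0 of 16 that fell and 1 of 43 that did not pass, against 2.55% of tested genes. Matches before the start site are printed, 141 bases upstream of it in Slc7a7 and 189 in Slc50a1.
Slc7a7: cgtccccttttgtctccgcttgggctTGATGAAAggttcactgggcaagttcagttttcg
Slc50a1: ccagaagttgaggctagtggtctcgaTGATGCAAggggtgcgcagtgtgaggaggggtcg
In GRCm38.p6 the printed stretches lie at chr11:55204280-55204339 (Slc36a1, plus strand), chr13:73763632-73763691 (Slc12a7, plus strand), chr16:45158708-45158767 (Slc35a5, minus strand), chr13:100833456-100833515 (Slc30a5, minus strand), chr17:45595289-45595348 (Slc29a1, minus strand), chr2:129198713-129198772 (Slc20a1, plus strand), chr6:90619006-90619065 (Slc41a3, plus strand), chr14:54418052-54418111 (Slc7a7, minus strand) and chr3:89270726-89270785 (Slc50a1, minus strand). Of the other motifs searched, CATGTG, a further E-box, was in 1 of 16 carriers that fell and 3 of 16 that rose (9.5% of tested genes), and the core of the interferon-stimulated response element in 0 of each (3.6%). All motifs were searched on both strands. The 2 cores of the metal response element differ by 1 letter and never match the same bases of a strand. TGCACNC was in 0 of 16 carriers that fell, 2 of 16 that rose and 12 of 43 that did not pass, against 14.8% of tested genes. It was in 6 of 15 tested metal carriers with a window, and all 6 of these did not pass. TGCGCNC was in 2 of 16 carriers that fell, 7 of 16 that rose and 14 of 43 that did not pass, against 32.6% of tested genes, and in 4 of 15 metal carriers. A match is a description of letters, and nothing about binding was measured.

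Amino acid and peptide carriers were the largest class, with 30 genes, 21 of them tested, and they moved in both directions. Of these 7 were lower, 7 were higher and 7 did not pass, with a median log2 ratio of 0.18. Calls covered 66.7% of the class, against 50.3% of all genes tested. After the correction for length and GC 4 were lower, 9 were higher and 8 did not pass. The heteromeric transporters are pairs of a heavy chain, Slc3a2 or Slc3a1, and a light chain of the Slc7 family that forms the path for the substrate. Slc3a2 rose to 68.7 and 68.8 RPKM in the knockdown libraries, against 52.5 RPKM in the control, which are close values in both libraries and a modest log2 ratio of 0.38 (SE 0.06, limma adjusted p = 0.00617). Its light chain Slc7a5, which imports leucine and other large neutral amino acids, was 37.1 and 38.5 RPKM in the knockdown libraries, against 25.2 RPKM in the control (log2 ratio 0.57, SE 0.08, limma adjusted p = 0.00341). Slc7a7, a light chain that exchanges cationic for neutral amino acids, also rose, with 3.48 and 3.91 RPKM in the knockdown libraries, against 2.09 RPKM in the control. Its exons share 232 bases with Oxa1l on the opposite strand, and Oxa1l was higher too, at 23.7 and 23.6 RPKM in the knockdown libraries, against 12.9 RPKM in the control, so reads of the pair may not have been told apart. The light chain Slc7a6, of the same type, went the other way, to 5.98 and 6.63 RPKM in the knockdown libraries, against 8.53 RPKM in the control. Slc7a8, a light chain for neutral amino acids, was under the test's limit and was 0.258 and 0.335 RPKM in the knockdown libraries, against 1.15 RPKM in the control. The other heavy chain, Slc3a1, was low at 0.635 and 0.543 RPKM in the knockdown libraries, against 0.900 RPKM in the control.

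Among the tested amino acid carriers the log2 ratio farthest from 0 was that of Slc6a17, which loads neutral amino acids into synaptic vesicles. It was 3.47 and 3.03 RPKM in the knockdown libraries, against 10.4 RPKM in the control, a 3.22-fold lower mean (log2 ratio -1.43, SE 0.12, limma adjusted p = 0.000973). Its relative Slc6a15, a carrier of branched-chain amino acids, moved the opposite way, with 6.63 and 5.96 RPKM in the knockdown libraries, against 4.15 RPKM in the control. Both genes of the proton-coupled Slc36 family fell. Slc36a4 was 0.704 and 0.770 RPKM in the knockdown libraries, against 1.99 RPKM in the control (log2 ratio -0.78, SE 0.11, limma adjusted p = 0.00448), and it passed the filter on low values only through the control. Slc36a1, which exports small amino acids from the lysosome, was 1.52 and 1.66 RPKM in the knockdown libraries, against 2.38 RPKM in the control, and lost its call after the correction for length and GC.

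The Slc38 family, mostly carriers of glutamine and other neutral amino acids, was split. Slc38a10 fell to 32.8 and 34.2 RPKM in the knockdown libraries, against 55.9 RPKM in the control (log2 ratio -0.72, SE 0.07, limma adjusted p = 0.00165). Slc38a1, a glutamine importer, fell to 8.68 and 9.08 RPKM in the knockdown libraries, against 11.9 RPKM in the control, a call that was lost after the correction for length and GC. Slc38a3, another glutamine carrier, rose to 2.39 and 2.55 RPKM in the knockdown libraries, against 1.17 RPKM in the control. Slc38a2, the carrier induced by amino acid shortage, did not pass, with 14.3 and 16.3 RPKM in the knockdown libraries, against 16.4 RPKM in the control. The lysosomal members Slc38a7 and Slc38a9 did not pass either, with log2 ratios of 0.25 and 0.23, and neither did Slc38a6, at -0.08. The second ID of Slc38a9 was under the limit, at 0.450 and 0.317 RPKM in the knockdown libraries, against 0.648 RPKM in the control.

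Among the other amino acid carriers, Slc1a4, which exchanges serine and alanine, rose to 2.94 and 3.43 RPKM in the knockdown libraries, against 1.97 RPKM in the control. Its relative Slc1a5, the glutamine exchanger, was 9.83 and 9.21 RPKM in the knockdown libraries, against 9.09 RPKM in the control, and did not pass. Slc43a2, which lets large neutral amino acids leave the cell, fell to 1.11 and 1.12 RPKM in the knockdown libraries, against 1.94 RPKM in the control, and lost this call after the correction for length and GC. Slc7a1, the main arginine importer, showed a larger spread, with 8.23 and 10.2 RPKM in the knockdown libraries, against 7.77 RPKM in the control, and did not pass. Of the lysosomal histidine and peptide carriers, Slc15a3 rose to 1.56 and 1.58 RPKM in the knockdown libraries, against 0.703 RPKM in the control, whereas Slc15a4 did not pass, at 18.2 and 18.1 RPKM in the knockdown libraries, against 15.8 RPKM in the control. Slc15a3 met the filter only because of its knockdown values, and it shares 94 exonic bases with Tmem132a on the opposite strand, which was itself higher (log2 ratio 0.74). Slc15a2, a peptide importer of the plasma membrane, was under the limit, at 1.24 and 0.926 RPKM in the knockdown libraries, against 0.279 RPKM in the control. Slc7a3, Slc7a4, Slc7a15, Slc43a1 and Slc6a20b were below 0.5 RPKM in every library.

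**Figure D3:**
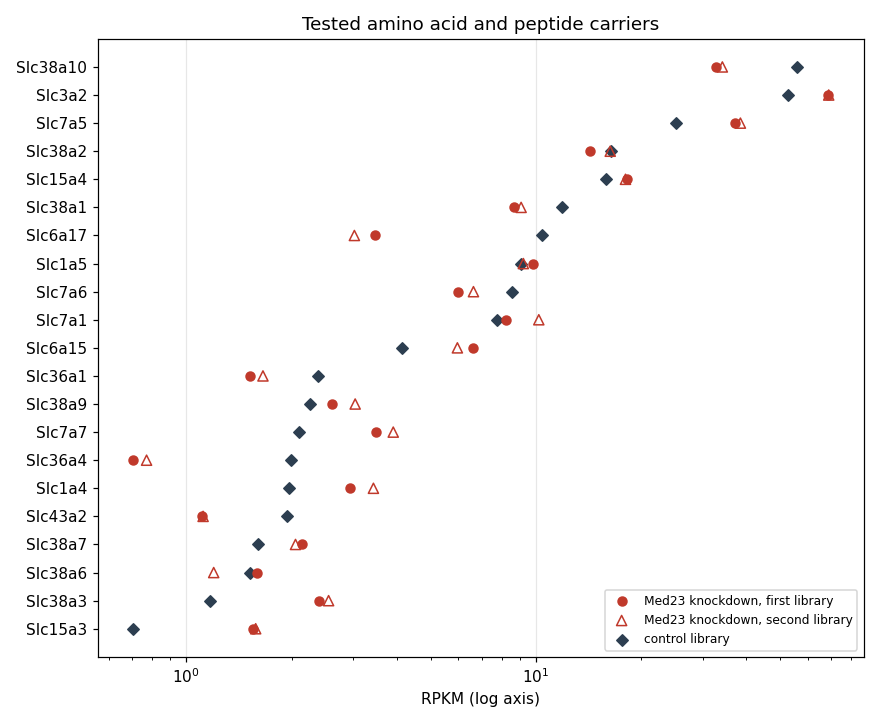
RPKM (x axis, log scale) of the 21 tested amino acid and peptide carriers in the first knockdown library (filled circles), the second knockdown library (open triangles) and the control library (diamonds), ordered by the control. Slc3a2 and Slc7a5 lie right of the control in both knockdown libraries, and Slc6a17 lies farthest to its left.

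Of 20 tested zinc, iron, copper and heme carriers, 8 were lower, 0 were higher and 12 did not pass in limma. The median log2 ratio was -0.26. Calls covered 40.0% of the class, against 50.3% of all genes tested (24.0% lower, 26.3% higher). At an unadjusted p under 0.05 the counts were 11 lower and 2 higher, and after the correction for length and GC 9 were lower and 2 were higher. Zinc enters the cytosol through the Slc39 family and leaves it, for the outside or for organelles, through the Slc30 family. Slc39a10, an importer of the plasma membrane, fell to 5.24 and 5.15 RPKM in the knockdown libraries, against 14.6 RPKM in the control (log2 ratio -1.34, SE 0.10, limma adjusted p = 0.000729). This was a 2.82-fold lower mean, with knockdown values that differed little from each other. Slc39a9, of the Golgi, fell to 4.29 and 4.35 RPKM in the knockdown libraries, against 7.39 RPKM in the control (log2 ratio -0.66, SE 0.11, limma adjusted p = 0.00577). Its exons share 459 bases with Erh on the opposite strand, which did not pass, at 12.8 and 11.9 RPKM in the knockdown libraries, against 14.2 RPKM in the control. Slc39a14, which also carries iron, was 2.44 and 2.25 RPKM in the knockdown libraries, against 3.74 RPKM in the control, and passed.

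The other 6 tested Slc39 genes did not pass. Slc39a6 and Slc39a3 were lower in both libraries, with log2 ratios of -0.36 and -0.29, and passed after the correction for length and GC. Slc39a1, a widely expressed zinc importer, was 48.2 and 54.6 RPKM in the knockdown libraries, against 50.8 RPKM in the control, which lay between them. Slc39a7, which releases zinc from the endoplasmic reticulum, was 49.3 and 51.4 RPKM in the knockdown libraries, against 44.3 RPKM in the control. Slc39a11 and Slc39a13 had log2 ratios of -0.07 and 0.36. In the Slc30 family Slc30a5, which fills the early secretory pathway with zinc, fell to 7.83 and 8.97 RPKM in the knockdown libraries, against 13.3 RPKM in the control. Slc30a9 fell to 13.1 and 14.1 RPKM in the knockdown libraries, against 17.9 RPKM in the control, and lost this call after the correction for length and GC. Slc30a6, the partner of Slc30a5, did not pass, with 2.40 and 2.88 RPKM in the knockdown libraries, against 2.68 RPKM in the control. Slc30a1, which expels zinc from the cell, had 2.28 and 2.33 RPKM in the knockdown libraries, against 1.82 RPKM in the control, and rose past the test only after that correction. Slc30a4 and Slc30a7 did not pass, with log2 ratios of -0.30 and -0.09.

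Iron carriers fell on both sides of the cell's iron traffic. Slc11a2, which imports ferrous iron across the plasma membrane and the endosome, fell to 16.2 and 17.5 RPKM in the knockdown libraries, against 27.4 RPKM in the control (log2 ratio -0.67, SE 0.09, limma adjusted p = 0.00352). Slc40a1, the iron exporter ferroportin, was 1.31 and 0.786 RPKM in the knockdown libraries, against 2.13 RPKM in the control, with a clear gap between the knockdown libraries (log2 ratio -0.62, limma adjusted p = 0.0341). The heme carrier Slc48a1 fell by a small amount, with a log2 ratio of -0.23 (limma adjusted p = 0.0153). The copper importer Slc31a1 did not pass, at 41.0 and 40.4 RPKM in the knockdown libraries, against 36.0 RPKM in the control, and its relative Slc31a2 was 6.07 and 4.78 RPKM in the knockdown libraries, against 4.11 RPKM in the control. Slc30a2, Slc39a2 and Slc39a4 were below 0.3 RPKM in every library.

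**Figure D4:**
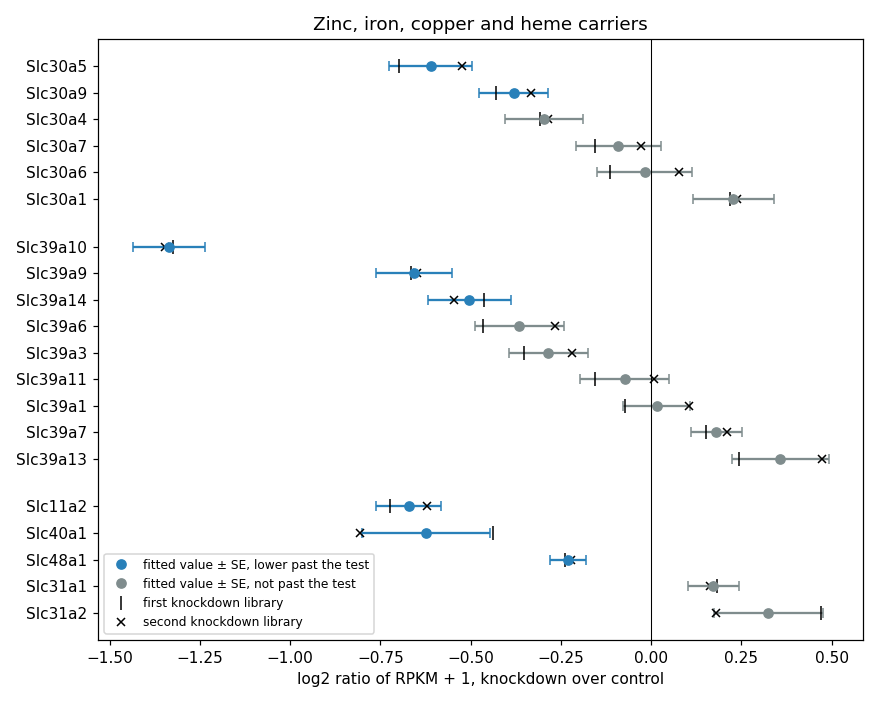
Log2 ratio of RPKM + 1, knockdown over control, with its standard error from limma (points and bars), for the 20 tested metal and heme carriers in 3 blocks, Slc30, Slc39 and the rest. Ticks and crosses mark the first and the second knockdown library, and blue marks genes that were lower past the test, with Slc39a10 at -1.34 farthest from 0.

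Genes of metal storage and metal response outside the carriers were called lower by limma in 6 of 10 tested, with 0 higher and 4 not past the test (median log2 ratio -0.39), against 24.0% lower, 26.3% higher and 50.3% in either direction over all genes tested. The counts at an unadjusted p under 0.05 were also 6 and 0. This list was chosen with earlier results of these data known, so its share is no test of metal genes as a group. The metallothionein Mt1, which binds zinc and copper, was 272 and 287 RPKM in the knockdown libraries, against 702 RPKM in the control, and its relative Mt2 was 160.1 and 159.6 RPKM in the knockdown libraries, against 343 RPKM in the control. Atp7a, the copper pump of the Golgi that also supplies tyrosinase, was 8.57 and 6.90 RPKM in the knockdown libraries, against 23.8 RPKM in the control (log2 ratio -1.51, SE 0.14, limma adjusted p = 0.00127). Fth1, the heavy chain of ferritin, was 2359 and 2306 RPKM in the knockdown libraries, against 3119 RPKM in the control.

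Bicarbonate, proton and chloride carriers set the pH and the volume of the cell. Of 14 tested, 6 were lower, 2 were higher and 6 did not pass (median log2 ratio -0.17). Calls covered 57.1% of the class, against 50.3% of all genes tested. After the correction for length and GC 4 were lower and 4 were higher, and the median turned to 0.080. Slc4a7, which imports sodium with bicarbonate, fell to 4.12 and 3.65 RPKM in the knockdown libraries, against 7.30 RPKM in the control (log2 ratio -0.77, SE 0.12, limma adjusted p = 0.00512). The anion exchanger Slc4a2, which moves bicarbonate out in return for chloride, rose to 4.24 and 4.48 RPKM in the knockdown libraries, against 1.78 RPKM in the control, a 2.45-fold higher mean (log2 ratio 0.95, SE 0.11, limma adjusted p = 0.00247). Its exons share 694 bases with Fastk on the opposite strand, whose level was 16.6 and 16.8 RPKM in the knockdown libraries, against 13.1 RPKM in the control, so the value of Slc4a2 is uncertain.

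The cation chloride cotransporters of the Slc12 family did not move together. Slc12a4, which takes potassium and chloride out of the cell, rose to 18.4 and 18.9 RPKM in the knockdown libraries, against 10.5 RPKM in the control (log2 ratio 0.77, SE 0.09, limma adjusted p = 0.00224). Slc12a7, an exporter of the same type, fell to 5.32 and 5.67 RPKM in the knockdown libraries, against 8.90 RPKM in the control. Slc12a2, which brings sodium, potassium and chloride in, fell to 1.09 and 1.29 RPKM in the knockdown libraries, against 2.26 RPKM in the control, and did not pass after the correction for length and GC. The carriers Slc4a4, Slc4a8, Slc9a5, Slc9a8, Slc9a9 and Slc12a9 did not pass, with log2 ratios between -0.27 for Slc4a8 and 0.33 for Slc9a5. Slc4a3 and Slc12a5, under the limit, were higher in both knockdown libraries, at 0.995 and 1.20 RPKM, against 0.736 RPKM in the control, and at 0.967 and 1.14 RPKM, against 0.675 RPKM in the control. Slc4a11 was below 0.1 RPKM throughout.

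Sugar and polyol carriers gave 4 genes that were higher, 1 that was lower and 6 that did not pass among 11 tested (median log2 ratio 0.01). Calls covered 45.5% of the class, against 50.3% of all genes tested. Slc2a6, a hexose transporter of intracellular membranes, showed the largest rise of any tested carrier on this scale, with 3.76 and 3.36 RPKM in the knockdown libraries, against 1.16 RPKM in the control, a 3.08-fold higher mean (log2 ratio 1.08, SE 0.12, limma adjusted p = 0.00215). Slc2a8, likewise an intracellular hexose transporter, rose to 9.83 and 11.1 RPKM in the knockdown libraries, against 7.85 RPKM in the control. Slc50a1, a sugar efflux transporter, was 21.6 and 23.6 RPKM in the knockdown libraries, against 14.6 RPKM in the control (log2 ratio 0.60, SE 0.09, limma adjusted p = 0.00553), and Slc45a3, a putative sugar transporter, was 16.2 and 17.8 RPKM in the knockdown libraries, against 11.0 RPKM in the control (log2 ratio 0.58, SE 0.10, limma adjusted p = 0.00725). The glucose transporter Slc2a3 of the plasma membrane did not pass, at 1.62 and 1.89 RPKM in the knockdown libraries, against 2.51 RPKM in the control. The fructose transporter Slc2a5 did not pass, at 5.83 and 6.99 RPKM in the knockdown libraries, against 7.57 RPKM in the control.

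In the Slc37 family of sugar phosphate exchangers, Slc37a2 fell to 2.39 and 2.52 RPKM in the knockdown libraries, against 3.54 RPKM in the control, and lost this call after the correction for length and GC. Slc37a4, which carries glucose 6-phosphate into the endoplasmic reticulum, was 14.3 and 15.3 RPKM in the knockdown libraries, against 12.3 RPKM in the control, and did not pass. Slc37a1 and Slc37a3 had log2 ratios of -0.18 and -0.08 and did not pass. The myo-inositol importer Slc5a3, which shares 159 exonic bases with Mrps6, lay on both sides of the control, with 9.07 and 6.58 RPKM in the knockdown libraries, against 7.67 RPKM in the control. Under the limit were Slc2a4, Slc2a9, Slc2a12, Slc5a2, Slc5a10 and Slc45a4, of which Slc2a4, the insulin-responsive glucose transporter, was 0.904 and 0.621 RPKM in the knockdown libraries, against 0.355 RPKM in the control, and Slc45a4 was 0.520 and 0.782 RPKM in the knockdown libraries, against 1.06 RPKM in the control.

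Nucleotide sugar carriers bring activated sugars from the cytosol into the Golgi for glycosylation. All 5 Slc35a genes and Slc33a1 were tested, and 3 were lower, 0 were higher and 3 did not pass limma's test (median log2 ratio -0.36), with 3 and 0 at an unadjusted p under 0.05 as well. Slc35a5, whose substrates are less well known, fell to 1.21 and 1.43 RPKM in the knockdown libraries, against 3.73 RPKM in the control (log2 ratio -1.03, SE 0.12, limma adjusted p = 0.00255). Slc35a3, the UDP-N-acetylglucosamine transporter, fell to 2.37 and 2.08 RPKM in the knockdown libraries, against 3.89 RPKM in the control (log2 ratio -0.60, SE 0.12, limma adjusted p = 0.0115). After the correction for length and GC the log2 ratio of Slc35a3 was -0.31 (limma adjusted p = 0.0498). Its exons share 275 bases with Gm43191 on the same strand. Slc35a4 was 6.44 and 6.63 RPKM in the knockdown libraries, against 11.1 RPKM in the control, and passed (log2 ratio -0.68, SE 0.10, limma adjusted p = 0.0044). Slc35a4 shares 152 exonic bases with Apbb3 on the opposite strand, which was higher, at 3.85 and 3.86 RPKM in the knockdown libraries, against 2.08 RPKM in the control. The CMP-sialic acid transporter Slc35a1, the UDP-galactose transporter Slc35a2 and the acetyl-CoA transporter Slc33a1 did not pass. Slc35a1 was 6.68 and 6.59 RPKM in the knockdown libraries, against 7.26 RPKM in the control, and Slc35a2 was 13.7 and 14.6 RPKM in the knockdown libraries, against 12.6 RPKM in the control.

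Of 9 tested carriers for nucleosides, vitamins and choline, 1 was lower, 2 were higher and 6 did not pass (median log2 ratio 0.07). The share called was 33.3%, against 50.3% of all genes tested. Slc19a2, the thiamine transporter, had the largest fall of any tested carrier on this scale, level with Slc6a17 at -1.43. Slc19a2 was 2.17 and 2.47 RPKM in the knockdown libraries, against 7.96 RPKM in the control, a 3.43-fold lower mean (log2 ratio -1.43, SE 0.12, limma adjusted p = 0.000956). Its relative Slc19a1, which carries reduced folates, did not pass, with 2.26 and 2.69 RPKM in the knockdown libraries, against 2.12 RPKM in the control. Slc29a1, the equilibrative nucleoside transporter of the plasma membrane, rose to 15.9 and 14.5 RPKM in the knockdown libraries, against 8.33 RPKM in the control (log2 ratio 0.80, SE 0.10, limma adjusted p = 0.00295), while the lysosomal Slc29a3 did not pass, at 2.37 and 2.26 RPKM in the knockdown libraries, against 2.16 RPKM in the control. Slc44a3, of the choline-like family, rose to 2.16 and 2.04 RPKM in the knockdown libraries, against 1.01 RPKM in the control (log2 ratio 0.62, SE 0.11, limma adjusted p = 0.00889). Its more abundant relatives did not pass, with 26.1 and 28.5 RPKM in the knockdown libraries, against 25.9 RPKM in the control, for Slc44a2, and 7.91 and 7.82 RPKM in the knockdown libraries, against 8.63 RPKM in the control, for the choline transporter Slc44a1. The ascorbate importer Slc23a2 and the multivitamin importer Slc5a6 did not pass, with log2 ratios of 0.05 and 0.02. The folate transporter Slc46a1 and the lysosomal Slc46a3 were under the limit, and Slc46a3 was 0.412 and 0.283 RPKM in the knockdown libraries, against 0.823 RPKM in the control. Slc23a1, Slc29a2, Slc29a4 and Slc44a4 were also under the limit, and Slc29a2 was highest of them, at 0.724 and 0.813 RPKM in the knockdown libraries, against 0.929 RPKM in the control.

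Carriers of transmitters and osmolytes were mostly low. Of 9, 4 were tested, 1 was lower, 0 were higher and 3 did not pass limma's test (median log2 ratio -0.16). An unadjusted p under 0.05 was reached by 2 that were lower and 0 that were higher. The taurine transporter Slc6a6 fell to 39.2 and 43.3 RPKM in the knockdown libraries, against 65.1 RPKM in the control (log2 ratio -0.65, SE 0.08, limma adjusted p = 0.0033). The creatine transporter Slc6a8, with 16.9 and 17.7 RPKM in the knockdown libraries, against 17.1 RPKM in the control, did not pass. Slc17a5, which exports sialic acid from the lysosome, was 2.57 and 2.82 RPKM in the knockdown libraries, against 3.63 RPKM in the control (limma adjusted p = 0.0644), and passed without an intensity trend and after the correction for length and GC. The glycine transporter Slc6a9, whose exons share 1429 bases with Ccdc24 on the opposite strand, was 2.09 and 2.14 RPKM in the knockdown libraries, against 1.57 RPKM in the control (limma adjusted p = 0.0914). The proline transporter Slc6a7 and the vesicular Slc17a7, Slc17a9, Slc18a1 and Slc18a2 were under the limit, none above 0.6 RPKM in any library.

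Of 15 carriers for carboxylates, sulfate and phosphate, 4 were tested, 2 were higher, 0 were lower and 2 did not pass in limma (median log2 ratio 0.24), and an unadjusted p under 0.05 gave the same counts. The phosphate importer Slc20a1 was 3.66 and 3.55 RPKM in the knockdown libraries, against 2.48 RPKM in the control, and passed (log2 ratio 0.41, SE 0.11, limma adjusted p = 0.0298, and 0.0559 with no filter on low values). Its relative Slc20a2 did not pass, with 3.60 and 2.74 RPKM in the knockdown libraries, against 4.08 RPKM in the control (limma adjusted p = 0.169). Slc26a11, an anion carrier, rose to 2.83 and 2.74 RPKM in the knockdown libraries, against 1.79 RPKM in the control (log2 ratio 0.44, SE 0.11, limma adjusted p = 0.0242), and Slc26a6 lay on both sides of the control. None of the 5 Slc16 genes counted here passed the filter. Slc16a13 was 0.501 and 0.696 RPKM in the knockdown libraries, against 1.36 RPKM in the control, and Slc16a4 was 1.27 and 0.795 RPKM in the knockdown libraries, against 0.493 RPKM in the control. The sulfate transporter Slc26a2 was 0.806 and 0.830 RPKM in the knockdown libraries, against 1.13 RPKM in the control. Slc16a6 was 0.540 and 0.532 RPKM in the knockdown libraries, against 0.809 RPKM in the control, and Slc13a4, Slc16a7, Slc26a1, Slc26a7, Slc26a8 and Slc26a10 were below 0.3 RPKM in every library.

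Calcium and magnesium carriers numbered 6, of which 3 were tested and 1 was higher (median log2 ratio 0.13). The share called was 33.3%, against 50.3% of all genes tested. Slc41a3, of the magnesium transporter family, was 5.02 and 5.17 RPKM in the knockdown libraries, against 3.76 RPKM in the control (log2 ratio 0.36, SE 0.11, limma adjusted p = 0.0393), and did not pass without a filter (adjusted p = 0.0686) or after the correction for length and GC (0.108). Slc41a1, a magnesium carrier of the plasma membrane, was 7.76 and 9.26 RPKM in the knockdown libraries, against 10.1 RPKM in the control (limma adjusted p = 0.187), and Slc24a6, the sodium/calcium exchanger of mitochondria, 4.41 and 4.54 RPKM in the knockdown libraries, against 4.02 RPKM in the control (limma adjusted p = 0.368). Slc41a2, just under the limit, was 0.565 and 0.638 RPKM in the knockdown libraries, against 1.47 RPKM in the control. The sodium/calcium exchangers Slc8a2 and Slc8a3 were below 0.1 RPKM in every library.

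Carriers of lipids, bile acids and organic ions had 7 tested, of which limma called 4 higher and 0 lower, and 3 did not pass. The median log2 ratio was 0.35. Calls covered 57.1% of the class, against 50.3% of all genes tested. At an unadjusted p under 0.05 there were 4 higher and 1 lower, and after the correction for length and GC 3 higher and 1 lower. Slc22a5, which imports carnitine for fatty acid oxidation, rose to 5.77 and 6.84 RPKM in the knockdown libraries, against 3.37 RPKM in the control (log2 ratio 0.74, SE 0.13, limma adjusted p = 0.00814). Slc22a21, a carnitine carrier of the mouse, was 1.30 and 1.35 RPKM in the knockdown libraries, against 0.676 RPKM in the control (log2 ratio 0.47, SE 0.11, limma adjusted p = 0.0201). Slc22a18, an organic cation carrier, was 7.62 and 7.25 RPKM in the knockdown libraries, against 5.62 RPKM in the control, and lost its call after the correction for length and GC. Slc10a7, of the bile acid transporter family, was 1.26 and 1.21 RPKM in the knockdown libraries, against 0.721 RPKM in the control (limma adjusted p = 0.0406). Slc22a21 and Slc10a7 were below 1 RPKM in the control and met the filter only because of their knockdown values. Slc22a5 and Slc22a21 are close paralogs, so the split of reads between them is uncertain. The fatty acid transport proteins Slc27a1, Slc27a4 and Slc27a6 did not pass, with log2 ratios of 0.20, -0.32 and -0.12. Slc22a17, a receptor-like member, was 1.09 and 0.787 RPKM in the knockdown libraries, against 0.557 RPKM in the control. Slc27a3, Slc22a15, Slc22a4, Slc22a23, Slc10a1 and Slc10a3 were below 0.6 RPKM in every library.

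**Figure D5:**
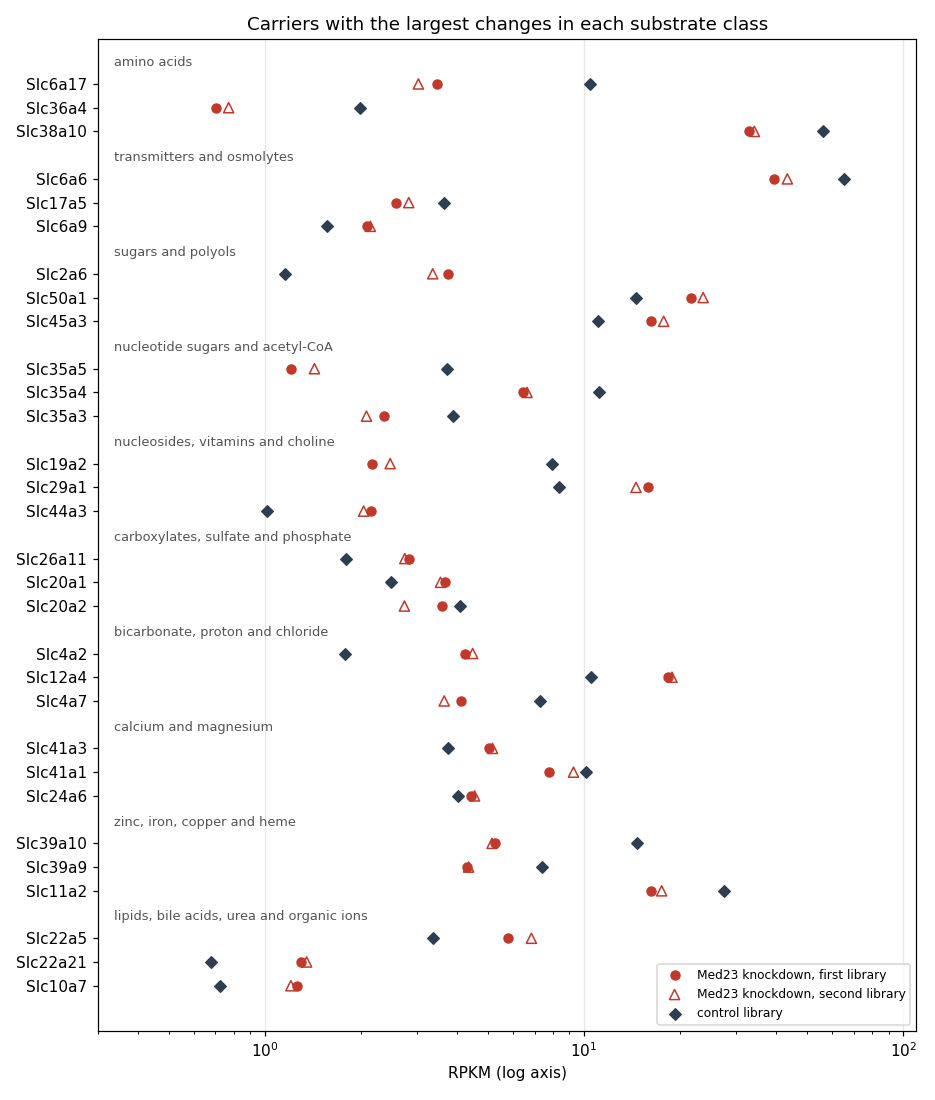
RPKM (x axis, log scale) in the first knockdown library (filled circles), the second knockdown library (open triangles) and the control library (diamonds), for the 3 carriers of each substrate class with the largest smaller change of both libraries. By the rule of choice, both knockdown libraries lie on the same side of the control for each gene shown. Slc6a17, Slc19a2, Slc39a10 and Slc35a5 lie farthest below the control.

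Of the 53 carriers under the limit, 29 lay below the control in both knockdown libraries, 16 were higher in both and 8 lay on both sides. Their means over the 3 libraries ran from 0.00862 RPKM (Slc6a20b) to just under 1 RPKM, and 18 were below 0.1 RPKM. At least 2-fold differences in both libraries were listed for 5 that were lower (Slc7a8, Slc41a2, Slc6a20b, Slc22a23 and Slc26a8) and 4 that were higher (Slc15a2, Slc30a2 and Slc44a4 among them), all untested. Among the tested carriers, Slc10a7, Slc15a3, Slc22a21, Slc26a6 and Slc9a9 were below 1 RPKM in the control, so the filter took them in through the knockdown libraries.

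The 4 genes that only bear a carrier's name were all tested. Slc9a3r1, a scaffold that ties membrane proteins to the cytoskeleton, fell to 3.32 and 3.59 RPKM in the knockdown libraries, against 12.4 RPKM in the control, more than any carrier on the log scale (log2 ratio -1.59, SE 0.11, limma adjusted p = 0.000601). Its relative Slc9a3r2 did not pass, at 6.58 and 7.02 RPKM in the knockdown libraries, against 6.93 RPKM in the control. Slc7a6os, which lies beside Slc7a6, rose to 10.5 and 10.2 RPKM in the knockdown libraries, against 6.37 RPKM in the control, while Slc7a6 fell. Slc4a1ap did not pass, with a log2 ratio of 0.22.

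Partners of the carriers were counted from 3 further lists, against the same 24.0% lower and 26.3% higher over all genes tested. These lists too were chosen with earlier results of these data known. Sodium pumps supply the gradient that many carriers use, and of 5 tested pump subunits and regulators 2 were lower and 3 were higher. The beta subunit Atp1b3 was 30.6 and 26.5 RPKM in the knockdown libraries, against 47.9 RPKM in the control. The beta subunit Atp1b2 rose to 8.95 and 8.57 RPKM in the knockdown libraries, against 2.03 RPKM in the control, and Fxyd1, a regulator of the pump, to 3.81 and 2.88 RPKM in the knockdown libraries, against 0.634 RPKM in the control. Fxyd1 met the filter only because of its knockdown values. Of 16 tested chaperones, arrestins and kinases that act on carriers, 7 were lower, 5 were higher and 4 did not pass (median log2 ratio -0.24). Arrdc3, an arrestin that directs membrane proteins to endosomes, was 3.60 and 3.29 RPKM in the knockdown libraries, against 19.0 RPKM in the control, and its relative Arrdc1 was 7.25 and 6.96 RPKM in the knockdown libraries, against 4.09 RPKM in the control. The kinases Sgk1 and Sgk3, which regulate carriers at the membrane, moved apart. Sgk1 rose to 3.97 and 5.02 RPKM in the knockdown libraries, against 1.30 RPKM in the control, and Sgk3 fell to 1.02 and 1.01 RPKM in the knockdown libraries, against 2.81 RPKM in the control. Of 15 tested carriers whose symbols fall outside the pattern, 3 were lower, 5 were higher and 7 did not pass (median log2 ratio 0.01). The largest of these changes was in Slc35e4, at 14.2 and 14.8 RPKM in the knockdown libraries, against 6.85 RPKM in the control, and Slc35b3, which brings the sulfate donor into the Golgi, was 3.78 and 3.38 RPKM in the knockdown libraries, against 2.09 RPKM in the control. The phosphate exporter Xpr1 was 3.51 and 3.97 RPKM in the knockdown libraries, against 6.43 RPKM in the control, and Slc35b4, a nucleotide sugar carrier, 3.64 and 3.66 RPKM in the knockdown libraries, against 5.75 RPKM in the control.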

How the data were processed

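RNA of B16F10 cells was sequenced after Trizol and column purification, per the labels' protocols. The authors deposited RPKM values. Tools in the submitters' processing notes were CASAVA 1.4, Cufflinks and TopHat, and the build was mm9. Annotation, strand use and normalization are not given in the sources used here. In the file, sorted columns were equal in 95.3% of positions (relative difference under 1e-09, largest 0.685%), so values had been quantile normalized, and their depth is unknown. All 3 value columns were used.

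Genes averaging 1 RPKM or more were fitted as log2(RPKM + 1) with limma 3.58.1 in R 4.3.3 (1 residual and 4.37 prior degrees of freedom, intensity trend), adjusted by Benjamini-Hochberg. The step was also run on simulated data. There the control was made to vary like a knockdown library, so that run cannot check this assumption. Substrate classes followed family numbers, except where members of a family (such as Slc5 and Slc6) carry different substrates and were placed singly. In each class the 3 tested carriers with the largest smaller change of both libraries were named with adjusted p, and most of them with log2 ratio and SE. The rule took only carriers with the same sign of change in both libraries. Others were added after their values were seen. A few genes are counted but not reported here by name. Members, classes and lists were chosen with earlier results of these data known. Transcript length, GC (longest transcript, 98.1% of genes) and exon overlaps were taken from GENCODE M21 (build GRCm38) by gene ID. Alternatives were other pseudocounts, filters, scaling, fold limits, trend and control SD, the length and GC correction, and leaving out each knockdown library. Plots used matplotlib 3.10.9.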

Additional observations from a re-analysis of the deposited data

How the results depend on the processing

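With a control SD of 3 times that of a knockdown library, limma called 0 carriers in either direction and 0 in each of the 10 classes, and all 26 of the 31 genes named by rule that had passed, Med23 included, no longer did. This setting leaves the log2 ratios as they were. Testing genes of at least 5 RPKM left 48 carriers, of which 15 were lower, 10 higher, 2 at least 2-fold lower and 0 at least 2-fold higher in both libraries, with a median of -0.036. Calls were then 7 for amino acids, 4 for bicarbonate, proton and chloride, 3 for sugars, 2 for lipids and organic ions, 1 each for nucleotide sugars and for nucleosides, vitamins and choline, and 0 each for carboxylates and for calcium and magnesium. The medians were 0.060 for amino acids, -0.32 for transmitters, 0.25 for sugars, -0.019 for nucleotide sugars, -0.47 for bicarbonate carriers, -0.23 for calcium and magnesium and -0.32 for metals. Without a filter 10 carriers were at least 2-fold lower and 9 higher, 3 sugar carriers were called, and the medians were -0.014 over all carriers, 0.00043 for amino acids, 0.068 for transmitters, -0.00076 for carboxylates, -0.049 for bicarbonate carriers, -0.0038 for calcium and magnesium, -0.092 for metals and 0.056 for lipids. These filters changed which genes were tested. After the correction for length and GC 3 carriers were at least 2-fold lower and 3 higher, 2 transmitter carriers and 0 calcium and magnesium carriers were called, and the medians were 0.040 over all carriers, -0.28 for nucleotide sugars, 0.15 for nucleosides, 0.080 for bicarbonate carriers, 0.037 for calcium and magnesium, -0.15 for metals and 0.13 for lipids. Metal carriers were then 9 lower and 2 higher of 20, and bicarbonate, proton and chloride carriers 4 lower and 4 higher of 14. A fold limit of 1.5 gave 18 lower and 12 higher. Without an intensity trend 2 transmitter carriers were called. With a pseudocount of 0.1 the medians were -0.44 for nucleotide sugars, 0.32 for carboxylates, 0.15 for calcium and magnesium and 0.40 for lipids. Rescaled libraries gave a median of -0.0081 over all carriers. The cause of the other shifts was not tested. No carboxylate carrier reached 5 RPKM, so that class has no median there.

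Leaving out either knockdown library left 1 library against 1, a value with no test. At least 2-fold changes then numbered 6 to 7 lower and 5 to 6 higher carriers. Medians ranged from -0.019 to 0.0074 over all carriers, 0.10 to 0.18 for amino acids, and 0.00 to 0.21 for sugars. The 31 genes named by rule kept their direction. For the carriers among them this was fixed in advance, because the rule took only those with the same sign in both libraries. No paired analysis was possible because the control had 1 library, so the groups shared fewer than 2 replicate numbers. Depth was unknown, so low RPKM values carry no counting error here.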
